A study of Arabidopsis thaliana with 48 samples.

Results

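Shoots were compared with roots in plants of the myc2-3 mutant, in 24 libraries (12 of shoots and 12 of roots) of the 48 RNA sequencing libraries in the series. The 24 libraries were chosen by genotype and tissue alone, and the light and microbe condition of each library entered as a factor. The other 24 libraries, 12 of shoots and 12 of roots of the line myc2-Flag, served for comparison. A tissue difference is called lost here if it passed the thresholds in myc2-Flag and not in myc2-3, and gained if the reverse. The difference between the genotypes had to pass them as well. A lost or gained difference can therefore be smaller in the other genotype rather than absent. myc2-3 carries a mutant allele of MYC2, which the study also names jin1-8. myc2-Flag is a jin1-8 mutant complemented with pMYC2::MYC2-FLAG, a tagged MYC2 expressed from the MYC2 promoter, so that it is itself a transgenic line and not a wild type. All plants were Arabidopsis thaliana of 5 weeks grown in the FlowPot system, a sterile peat-based growth chamber, and shoots and roots were harvested separately at 10 a.m., with the roots washed free of peat. Each tissue of each genotype had 4 conditions of 3 replicates: low light (LP, a reduced photosynthetically active radiation that the labels call Shade) or control light (NC), each combined with inoculation by a synthetic community of bacteria, fungi and oomycetes (+BFO) or with sterile growth (−BFO). The plants of a genotype were sequenced as a project of their own, so that genotype and project cannot be told apart.

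MYC2 is a basic helix-loop-helix transcription factor and a central switch of the jasmonate response: in the absence of jasmonate it is held inactive by JAZ repressors, and the hormone, sensed by COI1, removes them. Together with MYC3 and MYC4 it acts on wound responses, glucosinolate synthesis, light signalling and growth. Shoots and roots differ in most of what a plant cell does, since photosynthesis, stomata and the cuticle belong to the shoot, and mineral uptake, root hairs and the Casparian strip, the endodermal seal that makes uptake selective, belong to the root.

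Counts on genes came to between 5162823 and 8970837 per library in myc2-3 shoots and between 6327979 and 10395159 in myc2-3 roots, and to between 6654213 and 11045467 over both tissues of myc2-Flag. The tissue labels held in every library. The summed level of 8 shoot markers lay between 26445 and 49291 CPM (TMM-scaled counts relative to the size of the library) in myc2-3 shoots, against 39.4 to 267 CPM in myc2-3 roots. The summed level of 10 root markers lay between 137 and 581 CPM in myc2-3 shoots, against 2045 to 7134 CPM in myc2-3 roots, and the Casparian strip gene CASP5 and the root hair expansin EXPA7 had no count in any myc2-3 shoot library. Most of the root marker sum was 1 gene, PYK10, with 128 to 566 CPM in myc2-3 shoots, against 1561 to 6268 CPM in myc2-3 roots. Flower and seed markers summed to at most 17.4 CPM in myc2-3 shoots and 1.26 CPM in myc2-3 roots. Per the study's methods, many samples of the mutant had the greater share of their reads on the genome of a latent virus. Which libraries these were is not given in the sources used here, and their part in the results was not tested.

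The condition labels need a caution before any result that uses them. Over the 21098 genes tested, the difference +BFO minus −BFO in myc2-3 roots correlated with that in myc2-Flag roots at r = −0.68 under LP and −0.83 under NC, so that genes higher with the community in one genotype were by and large lower in the other. In shoots the same correlation was −0.10 under LP and 0.33 under NC, and the difference +BFO minus −BFO in myc2-3 shoots correlated with the difference LP minus NC in myc2-Flag shoots at r between −0.80 and −0.47. These are correlations across genes that share libraries, and genes are not independent replicates. Exchanged condition labels and a response that turns round with the genotype cannot be told apart from them. Comparisons of shoots with roots that average the 4 conditions, and the separation of the 12 shoot from the 12 root libraries, do not change if condition labels are exchanged within a tissue, and the results below rest on these unless a condition is named.

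MYC2 (AT1G32640) itself was low in the mutant, and it was the shoots that were lowest. It ranged from 5.48 to 17.8 CPM in the 12 myc2-3 shoot libraries (median 8.64), against 23.5 to 41.0 CPM in the 12 myc2-3 root libraries (median 35). In myc2-Flag it ranged from 54.3 to 410 CPM in shoots (median 109), against 110 to 211 CPM in roots (median 169). Shoot and root libraries did not overlap in myc2-3 and overlapped widely in myc2-Flag, and every myc2-3 library lay below every myc2-Flag library. The log2 fold change of shoots over roots was −1.90 ± 0.21 (SE) in myc2-3 and −0.46 ± 0.16 in myc2-Flag, and these differed by −1.44 ± 0.26 (adjusted p = 8.9e-05, edgeR quasi-likelihood F-test, Benjamini-Hochberg over all genes tested). MYC2 thus belongs to the gained root-high genes, although both tissues of myc2-3 fell short of those of myc2-Flag, with a log2 fold change of −3.71 in shoots and −2.27 in roots.

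**Figure D1:**
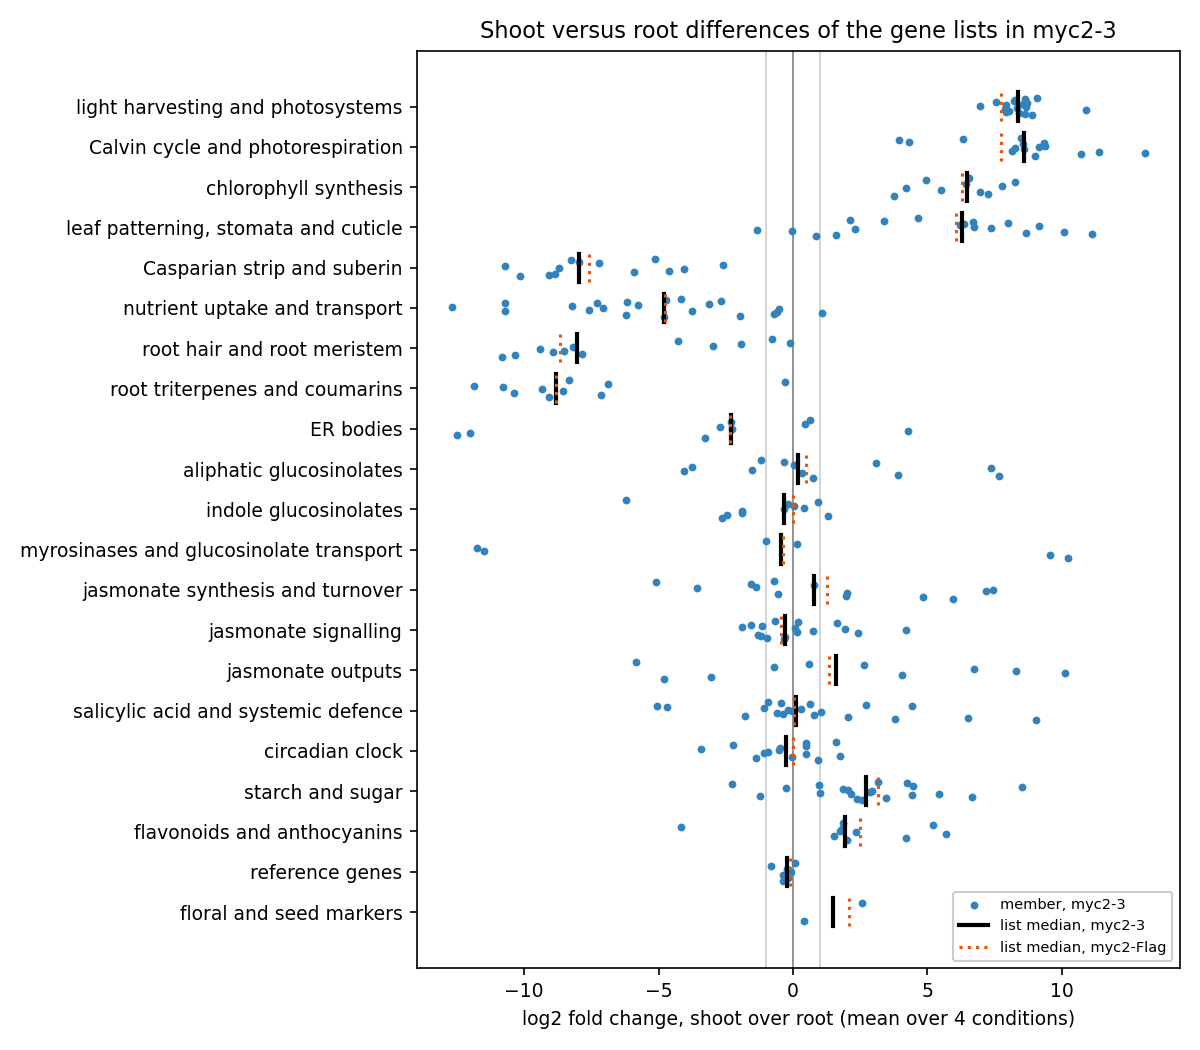
Shoot versus root log2 fold changes in myc2-3, averaged over the 4 conditions, for the tested members of each gene list (horizontal axis, log2 units, positive values higher in shoots; one point per gene; black bars mark the list medians in myc2-3, dotted bars those in myc2-Flag, and grey lines a 2-fold difference). All 18 light harvesting genes lie to the right and all 13 Casparian strip and suberin genes to the left, while the defence, jasmonate and clock lists spread to both sides.

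Of the 21098 genes tested, 10136 were called between shoots and roots in myc2-3, at a fold change of at least 2 and an edgeR adjusted p under 0.05. Shoots were higher for 4802 genes (22.8% of those tested) and lower for 5334 (25.3%). For 7377 of the 10136 the 12 shoot libraries did not overlap the 12 root libraries, against 8765 of all 21098 genes tested. Tissue took 83.2% of the total variance of log2 CPM over the myc2-3 libraries, against 3.82% for microorganisms, 1.19% for light and 4.53% within conditions. In each of the 4 conditions on its own, 6582 genes were called with the same sign, 3307 of them higher and 3275 lower in shoots. A log2 fold change of 5 or more in size was reached by 1055 genes higher and 1395 genes lower in shoots. The split between the directions depends on how libraries are scaled, since TMM factors lay between 0.779 and 0.912 in myc2-3 shoots and between 1.2 and 1.29 in myc2-3 roots. With library totals alone, 3561 genes were higher and 8326 lower in shoots, and the median over all genes moved by −0.58 on the log2 scale from its value of −0.13, while upper quartile factors moved it by −0.16. In bulk tissue, more cells of a type and more RNA per cell of that type cannot be told apart.

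The genes furthest on the shoot side were nearly silent in roots. AT2G10940, a gene of the lipid-transfer protein superfamily, had 559 to 1503 CPM in myc2-3 shoots (median 1090), against 0 to 0.111 CPM in myc2-3 roots. Its 2 counts over all 12 root libraries give a ratio of 62593, with a 95% exact interval of 17327 to 516864 that covers counting error only. AT1G23130, of the polyketide cyclase and lipid transport superfamily, had 319 to 655 CPM in myc2-3 shoots, against 0 to 0.121 CPM in myc2-3 roots (2 counts, ratio 31343, interval 8676 to 258816). Both were therefore detected in roots only at the level of single reads. FBA5, a fructose-bisphosphate aldolase, had 275 to 2118 CPM in myc2-3 shoots (median 863), against 0 to 0.449 CPM in myc2-3 roots, a log2 fold change of 13.77 ± 0.23. CA2, a beta carbonic anhydrase, had 1129 to 2284 CPM in myc2-3 shoots (median 1949), against 0 to 0.407 CPM in myc2-3 roots, a log2 fold change of 13.71 ± 0.17. Libraries apart in myc2-3 were a condition for naming these genes, and their tissues did not overlap in myc2-Flag either.

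Photosynthesis genes separated the tissues completely. All 18 tested genes of light harvesting and the photosystems were higher in shoots, with log2 fold changes of 6.95 to 10.92 (median 8.37), and so were all 15 genes of the Calvin cycle and photorespiration (median 8.61) and all 10 of chlorophyll synthesis (median 6.48), against a median of −0.13 over all genes tested. No member of these lists overlapped between shoot and root libraries of myc2-3, where 8765 of all 21098 genes tested did not overlap. LHCB1.1, which encodes a chlorophyll a/b binding protein of the main antenna, had 10359 to 21937 CPM in myc2-3 shoots (median 15594), against 1.44 to 32.4 CPM in myc2-3 roots (median 7.20). LHCB4.1, of a minor antenna, had the smallest difference of its list, with 3155 to 4971 CPM in myc2-3 shoots, against 12.7 to 56.6 CPM in myc2-3 roots. Even that smallest difference was a log2 fold change of 6.95 ± 0.13. GLDP1, a subunit of the glycine decarboxylase of photorespiration, had 373 to 3810 CPM in myc2-3 shoots (median 1499), against 62.2 to 141 CPM in myc2-3 roots (median 88.9), the smallest log2 fold change among the Calvin cycle and photorespiration genes at 3.94 ± 0.09. HEMA1, the glutamyl-tRNA reductase that starts tetrapyrrole synthesis, was the chlorophyll gene with the smallest difference, with 668 to 1156 CPM in myc2-3 shoots, against 59.1 to 79.7 CPM in myc2-3 roots. LHCB1.1 and LHCB1.3, LHCB2.1 and LHCB2.2, and RBCS1B, RBCS2B and RBCS3B are near-identical copies, and because reads with several alignments were not counted, the share of each copy is uncertain.

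Several of these genes had a larger tissue difference in myc2-3 than in myc2-Flag. Of the Calvin cycle and photorespiration genes, 8 of 15 had a larger and 1 a smaller tissue difference in myc2-3, against 1.26% and 0.730% of all genes tested for larger and smaller values of the interaction, the shoot minus root difference in myc2-3 minus that in myc2-Flag. RBCS2B, a small subunit of Rubisco, had 0 to 0.640 CPM in myc2-3 roots (median 0.199), against 0.205 to 4.17 CPM in myc2-Flag roots (median 0.78). In shoots it had 1169 to 3320 CPM in myc2-3, against 1154 to 3383 CPM in myc2-Flag. The shoot libraries of the genotypes thus covered the same range, the root libraries overlapped in part, and the interaction was 2.25 ± 0.40 (edgeR adjusted p = 5.5e-05). HPR, the peroxisomal hydroxypyruvate reductase of photorespiration, followed the same pattern: it had 0.844 to 7.67 CPM in myc2-3 roots (median 2.3), against 3.02 to 9.99 CPM in myc2-Flag roots (median 7), with an interaction of 1.13 ± 0.21 (adjusted p = 0.00013). RBCS3B had an interaction of 1.34 ± 0.30 and CA2 one of 1.92 ± 0.52. The calls of RBCS2B, RBCS3B and HPR held with any 1 library left out, whereas those of RBCS1A, RBCS1B, GAPA, HCEF1 and GOX1 were lost on leaving out any of 2 to 7 of the 48 libraries, with interactions between 0.92 and 2.22; 4 of these were lost without myc2-3 root LP +BFO replicate 2. These differences lay at low levels in roots, since the shoots of RBCS2B, HPR, RBCS3B and CA2 differed between genotypes by at most 0.19 in size on the log2 scale. The summed shoot markers in roots moved with it, with 39.4 to 267 CPM in myc2-3 roots (median 99.9), against 92.1 to 335 CPM in myc2-Flag roots (median 150.5), and their part in these interactions was not tested. GLDP1 went the other way, with an interaction of −1.15 ± 0.11 (adjusted p = 3.4e-10) and 62.2 to 141 CPM in myc2-3 roots, against 38.7 to 76.7 CPM in myc2-Flag roots.

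Leaf identity genes were mostly on the shoot side. Of 18 tested genes of leaf patterning, stomata and cuticle, 15 were higher and 1 lower in shoots of myc2-3 (median 6.29, or 5.97 with genes that had no root count set at their bound). YAB1, a YABBY factor of the lower leaf side, had 23.2 to 46.4 CPM in myc2-3 shoots (median 35.2) and no count in any myc2-3 root library, so that it was at least 1393-fold higher in shoots, taking a floor of 3 counts over the group. The stomatal lineage factor MUTE and the stomatal patterning peptide gene EPF2 also had no count in myc2-3 roots, and were at least 66.8-fold and 58.6-fold higher in shoots. PHB, a homeodomain factor that specifies the upper leaf side and also patterns root vasculature, was the member lower in shoots. It had 27.3 to 50.1 CPM in myc2-3 shoots, against 74.9 to 123 CPM in myc2-3 roots, and a log2 fold change of −1.33 ± 0.06. KAN1 did not separate the tissues, with 12.4 to 28.8 CPM in myc2-3 shoots, against 10.5 to 26.9 CPM in myc2-3 roots. CER1, needed for the alkanes of the cuticle, had 5.75 to 17.3 CPM in myc2-3 shoots (median 9.27), against 0.111 to 2.24 CPM in myc2-3 roots (median 1.26).

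On the root side, the genes furthest out encode cell wall proteins. The proline-rich extensins AT3G54580, AT3G28550, AT1G23720 and HRGP1 had between 2 and 3 counts each over the 12 myc2-3 shoot libraries, against lowest root libraries of 454, 392, 382 and 191 CPM. The ratio of roots to shoots was 18774 for AT3G54580 (95% exact interval 6424 to 91037), 14392 for AT3G28550 (4924 to 69789), 11299 for AT1G23720 (3866 to 54793) and 13798 for HRGP1 (3819 to 113937). Extensins are hydroxyproline-rich glycoproteins that cross-link in the wall, and since AT3G54580 and HRGP1 are close copies their separate counts are uncertain.

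The root barrier, uptake and hair lists were nearly all lower in shoots. All 13 genes of the Casparian strip and suberin were lower in shoots of myc2-3 (median −7.94). PER64, the peroxidase that polymerises lignin of the strip, had no count in myc2-3 shoots, against 16.5 to 35.8 CPM in myc2-3 roots, at least 602-fold higher in roots. The smallest difference was that of GSO1, a receptor kinase that monitors the strip, with 1.72 to 8.94 CPM in myc2-3 shoots, against 23.8 to 48.3 CPM in myc2-3 roots (log2 fold change −2.59 ± 0.12). Of 12 root hair and root meristem genes 10 were lower in shoots (median −8.02, or −7.29 with genes without shoot counts at their bound). EXPA7 was at least 647-fold higher in roots, and the root hair regulators RHD6 and RSL4, also without a count in myc2-3 shoots, at least 180-fold and 135-fold. SCR, which patterns the ground tissue in roots and the bundle sheath in leaves, did not separate the tissues, with 12.9 to 36.6 CPM in myc2-3 shoots, against 16.2 to 29.8 CPM in myc2-3 roots.

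Uptake of nutrients followed the same order, with 17 of 21 genes lower and 1 higher in shoots (median −4.79). IRT1, the iron transporter of the root epidermis, had 0 to 1.81 CPM in myc2-3 shoots, against 155 to 500 CPM in myc2-3 roots (median 253), and IRT1 libraries did not overlap. The ammonium transporter AMT1;3, the phosphate exporter PHO1 and the sulphate transporter SULTR1;2 had log2 fold changes of −10.70, −7.07 and −7.30. NIA2, which supplies most nitrate reductase of the plant, was the member higher in shoots, with 364 to 1311 CPM in myc2-3 shoots (median 819), against 210 to 707 CPM in myc2-3 roots (median 314) and a log2 fold change of 1.08 ± 0.07. NIA2 libraries overlapped between the tissues, and the fold fell under 2 with upper quartile factors and with library totals. Of 10 genes of root triterpenes and coumarins, compounds that roots make and in part release, 9 were lower in shoots (median −8.81). CYP82C4, which hydroxylates the coumarin fraxetin to sideretin, had 0 to 0.557 CPM in myc2-3 shoots, against 51.1 to 256 CPM in myc2-3 roots (median 106). The beta-glucosidase BGLU42, with 15.2 to 21.4 CPM in myc2-3 shoots, against 15.2 to 31.6 CPM in myc2-3 roots, was the member that was not called.

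ER bodies are endoplasmic reticulum compartments filled with beta-glucosidases, and different glucosidases fill them in leaves and roots. Of 9 ER body genes, 6 were lower and 1 higher in shoots of myc2-3. BGLU21, a root glucosidase, had 0 to 0.912 CPM in myc2-3 shoots, against 360 to 742 CPM in myc2-3 roots (log2 fold change −12.50 ± 0.20). BGLU18, the glucosidase of leaf ER bodies, had 31.9 to 88.7 CPM in myc2-3 shoots (median 53.4), against 1.21 to 8.36 CPM in myc2-3 roots (median 2.50). The log2 fold change of BGLU18 was 4.27 ± 0.21 in myc2-3 and 5.57 ± 0.23 in myc2-Flag, an interaction of −1.3 ± 0.36 (edgeR adjusted p = 0.0071). BGLU21 and BGLU22 are near-identical, and their separate counts are uncertain.

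Glucosinolates, the mustard oil precursors whose synthesis MYC factors share in controlling, did not fall on 1 side. Among 12 genes of the aliphatic branch 4 were higher and 4 lower in shoots of myc2-3 (median 0.18, which turned to −0.39 with library totals). Of all genes tested, 22.8% were higher and 25.3% lower. MYB29, a regulator of the branch, had 2.21 to 26.9 CPM in myc2-3 shoots (median 8.56), against 0 to 1.86 CPM in myc2-3 roots, with a median of 0. MAM3, which elongates the methionine side chain, had 7.74 to 35 CPM in myc2-3 shoots (median 14), against 172 to 342 CPM in myc2-3 roots (median 250). Both genes separated the tissues completely, in opposite directions. The paralogous first enzymes did likewise, with log2 fold changes of 7.37 for CYP79F1 and −3.74 for CYP79F2. In the indole branch 1 of 11 genes was higher and 5 were lower in shoots (median −0.35). CYP81F4, which makes the precursor of 1-methoxy-indol-3-ylmethyl glucosinolate, had 0.992 to 9.20 CPM in myc2-3 shoots, against 176 to 782 CPM in myc2-3 roots (log2 fold change −6.20 ± 0.16). The regulator MYB51 was the member higher in shoots, with 26.4 to 133 CPM in myc2-3 shoots, against 12.8 to 51.3 CPM in myc2-3 roots (1.3 ± 0.18, overlapping, and not called with library totals). Myrosinases, which split glucosinolates, were divided between the organs: TGG1 had 886 to 2307 CPM in myc2-3 shoots, against 0 to 15.6 CPM in myc2-3 roots, and TGG5 had no count in myc2-3 shoots, against 11.8 to 138 CPM in myc2-3 roots, at least 1627-fold higher in roots. No gene of these 3 lists had a called interaction with genotype, which says little for TGG5, without a count in shoots of either genotype.

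Jasmonate genes lay on both sides. Of 13 genes of jasmonate synthesis and turnover, 6 were higher and 4 lower in shoots of myc2-3 (median 0.80). AOC2, an allene oxide cyclase, had 87.8 to 456 CPM in myc2-3 shoots (median 127), against 0.121 to 3.61 CPM in myc2-3 roots (median 0.496), a log2 fold change of 7.44 ± 0.28. Its paralogues AOC3 and AOC4 were lower in shoots, with log2 fold changes of −3.57 and −1.38. The lipoxygenase LOX2 stood at 5.94, while JAR1, which conjugates jasmonate to isoleucine, stood at −1.56. CYP94B3, which turns the active conjugate over, had 0 to 2.92 CPM in myc2-3 shoots, against 3.67 to 14.2 CPM in myc2-3 roots. Among 17 genes of jasmonate signalling 4 were higher and 5 lower in shoots (median −0.28), near the 22.8% higher and 25.3% lower of all genes tested. The repressor gene JAZ9 had 83.4 to 298 CPM in myc2-3 shoots (median 106), against 1.83 to 16.2 CPM in myc2-3 roots (median 5.6), and the MYC2 paralogues MYC3 and MYC4 had log2 fold changes of −1.15 and −1.56. MYC2 was the single member of both lists whose tissue difference was called between the genotypes. The synthesis genes AOC1 and AOC2 are near-identical, so that their separate counts are uncertain.

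Of 10 tested jasmonate outputs, 5 were higher and 3 lower in shoots of myc2-3 (median 1.62), against 22.8% and 25.3% of all genes tested. A called interaction was found for 3 members, all of them further to the root side in myc2-3. Among all genes tested, 0.730% had an interaction called lower in value. CORI3, a cystine lyase, had 7.64 to 26.3 CPM in myc2-3 shoots and no count in myc2-3 roots, at least 719-fold higher in shoots. VSP2, the vegetative storage protein used as a MYC2 marker, had 0.859 to 14.2 CPM in myc2-3 shoots (median 3.78), against 11.1 to 58.2 CPM in myc2-3 roots (median 37.2). In myc2-Flag it had 2.29 to 40.4 CPM in shoots (median 5.06), against 3.86 to 65.3 CPM in roots (median 24.7). The tissues overlapped in both genotypes, though by little in myc2-3, and the log2 fold change was −3.07 ± 0.23 in myc2-3 and −1.45 ± 0.20 in myc2-Flag, an interaction of −1.61 ± 0.33 (edgeR adjusted p = 0.00031). VSP1 moved with it (interaction −1.31 ± 0.46, lost on leaving out any of 4 shoot libraries), but the genes are close copies and their split is uncertain. CHIB, a basic chitinase of the ethylene and jasmonate branch, had 0.786 to 4.93 CPM in myc2-3 shoots (median 2.68), against 88.1 to 213 CPM in myc2-3 roots (median 139), while myc2-Flag shoots had 1.62 to 14.7 CPM (median 5.56), an interaction of −1.15 ± 0.20 (adjusted p = 3.2e-05). Between the genotypes, VSP2 and CHIB were called lower in myc2-3 shoots, at −1.11 and −1.23.

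Among 20 genes of salicylic acid and systemic defence 7 were higher and 4 lower in shoots of myc2-3 (median 0.13, which turned to −0.45 with library totals and −0.03 with upper quartile factors). The shares over all genes tested were 22.8% higher and 25.3% lower. PR1, the usual salicylic acid marker, had 0.148 to 142 CPM in myc2-3 shoots (median 41.1), against 0 to 0.640 CPM in myc2-3 roots, with some overlap, and FMO1, which makes N-hydroxypipecolic acid, had 0 to 3.02 CPM in myc2-3 shoots, against 4 to 34.8 CPM in myc2-3 roots (log2 fold change −5.05 ± 0.34). AZI1, a lipid-transfer protein of systemic immunity, was the member whose tissue difference was called between genotypes. It had 23.9 to 551 CPM in myc2-3 shoots (median 149), against 2.13 to 31.4 CPM in myc2-3 roots (median 6.63), and 53.5 to 848 CPM in myc2-Flag shoots (median 238), against 10.8 to 148 CPM in myc2-Flag roots (median 50.4). AZI1 libraries of the tissues overlapped in both genotypes. The difference was larger in the roots, where myc2-3 was lower by a log2 fold change of −2.83 ± 0.22, and the interaction was 1.96 ± 0.28 (adjusted p = 1.7e-06).

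Starch and sugar genes lay mostly on the shoot side, with 15 of 20 higher and 2 lower in shoots of myc2-3 (median 2.71). SWEET11, a sucrose exporter of the leaf phloem, had 84.7 to 143 CPM in myc2-3 shoots, against 0 to 3.32 CPM in myc2-3 roots. CWINV1, a cell wall invertase, was lower in shoots at −2.25 ± 0.13, with 2.75 to 182 CPM in myc2-3 shoots, against 118 to 189 CPM in myc2-3 roots. Of 10 genes of flavonoids and anthocyanins 8 were higher and 1 was lower in shoots (median 1.93); TT7, the flavonoid 3′-hydroxylase, led at 5.70 ± 0.31, and the flavonol regulator MYB12, with 0 to 0.468 CPM in myc2-3 shoots and 0 to 1.89 CPM in myc2-3 roots, had 4 counts in all of its shoot libraries. None of 7 reference genes was called, with log2 fold changes from −0.80 for EF1A, a translation elongation factor, to 0.10 for UBC21, a ubiquitin-conjugating enzyme. EF1A passed the call at −1.38 with library totals, where UBC21 turned to −0.49, and UBC21 was −0.06 with upper quartile factors.

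Most tissue differences were shared between the genotypes. In myc2-Flag, 9666 genes were called, 4525 of them higher (21.4%) and 5141 lower (24.4%) in shoots. Called with the same sign in both genotypes were 8952 genes, which is 88.3% of the myc2-3 calls and 92.6% of the myc2-Flag calls. A further 1183 genes were called in myc2-3 only, but 1152 of these had the same sign in myc2-Flag and 968 had the same sign and an adjusted p under 0.05 there with a fold under 2. The difference between the genotypes was therefore tested itself, as the interaction. It was called for 419 genes, 265 of which were higher and 154 lower in value, against 6918 genes with an unadjusted p under 0.05 at any fold. For genes with almost no counts in an organ the SE of the interaction could be very large. The cold-regulated gene COR15A, for example, had an interaction of −2.60 with an SE of 9257. For such genes a missing call does not show that the genotypes were alike.

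**Figure D2:**
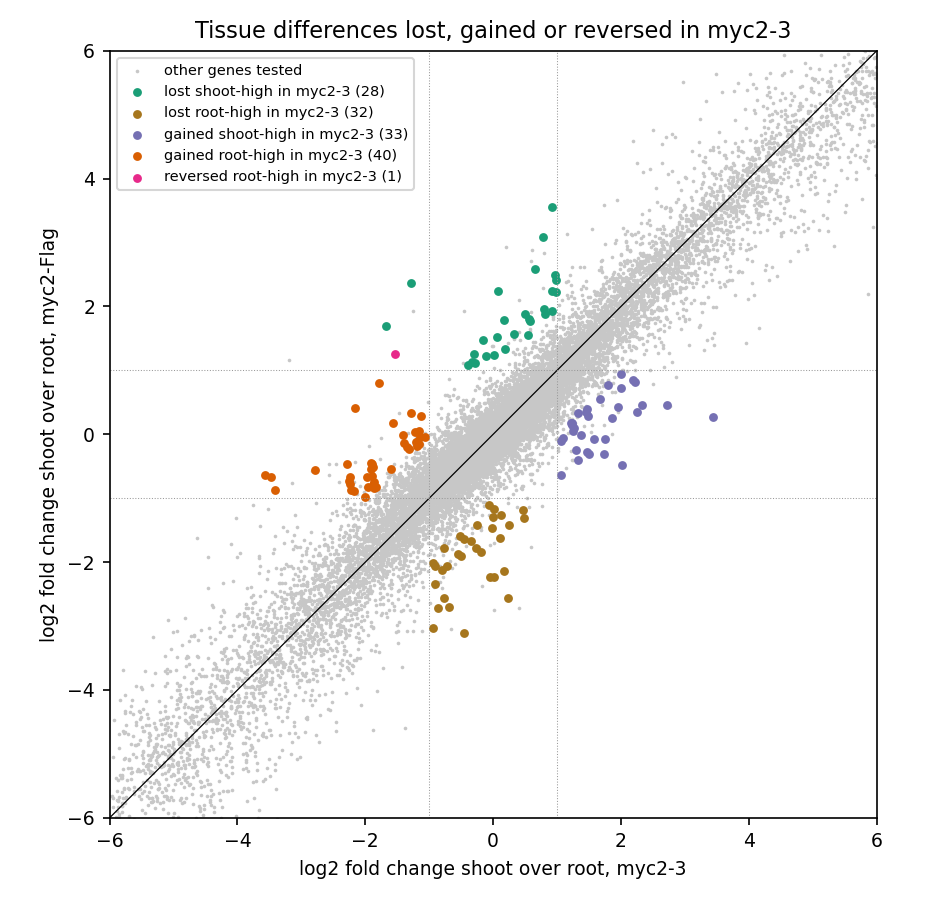
Shoot versus root log2 fold change in myc2-3 (horizontal axis) and in myc2-Flag (vertical axis), one point per gene tested, averaged over the 4 conditions and drawn within 6 on the log2 scale on either axis; 1949 of 21098 genes lie outside. Most genes lie along the diagonal, and the coloured lost, gained and reversed genes stand off it; dotted lines mark a 2-fold difference.

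Of the genes with a called interaction, 60 were lost in myc2-3, 28 of them shoot-high and 32 root-high in myc2-Flag, and 73 were gained, 33 shoot-high and 40 root-high in myc2-3. A single gene, FKF1, was reversed. The class sizes depend on the scaling, since with library totals 22 genes were gained root-high. The remaining called interactions were in genes called the same way in both genotypes, 174 shoot-high and 87 root-high, and in 24 others. In every class of lost and gained genes the larger change between the genotypes was more often in the shoots than in the roots, for 20 of 28 lost shoot-high, 27 of 32 lost root-high, 22 of 33 gained shoot-high and 35 of 40 gained root-high genes. Of the lost shoot-high genes 16 were called lower in myc2-3 shoots and none higher, against 0.877% of all genes tested called lower and 0.981% higher in shoots of myc2-3 than of myc2-Flag, and of the gained root-high genes 19 were called lower in myc2-3 shoots. Of the lost root-high genes 18, and of the gained shoot-high genes 12, were called higher in myc2-3 shoots. The classes are defined by the sign of a called interaction, so the direction of these shoot changes follows in large part from the selection. Set against the shares of all genes tested, these counts are therefore descriptions and no measure of enrichment. Against a null of a 2-fold difference, edgeR's glmTreat called 16 interactions, among them FKF1, ACA8, LETM1, AT2G21130, AT3G16180, AT5G39410 and TAG1, so that for most of the others the size of the difference was not shown to exceed 2-fold.

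**Figure D3:**
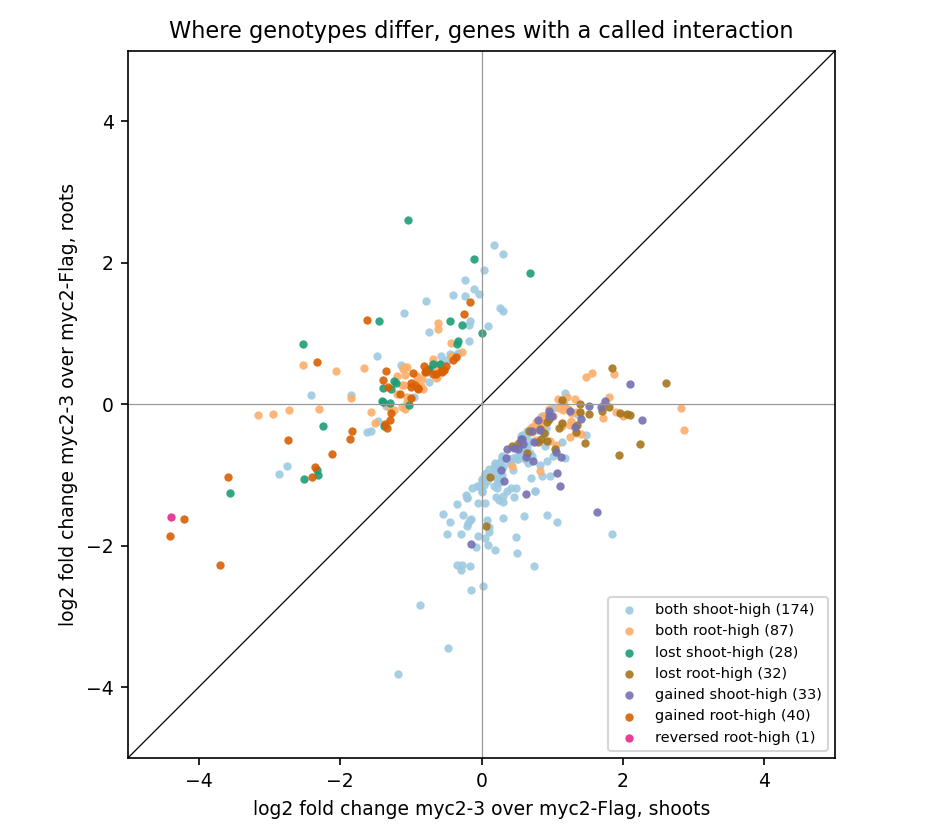
Change between the genotypes (myc2-3 over myc2-Flag, log2) in shoots (horizontal axis) and in roots (vertical axis) for genes whose tissue difference was called between the genotypes, coloured by class, with 24 genes called between the tissues in neither genotype left out. Lost and gained genes spread mainly along the shoot axis, while genes shoot-high in both genotypes spread mainly downwards along the root axis.

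Lost shoot-high genes were genes that were called higher in shoots of myc2-Flag and were not called in myc2-3. Apart from list members, lost genes were named only if shoot and root libraries were apart in myc2-Flag. This held for 8 of 28 lost shoot-high and 2 of 32 lost root-high genes, so the examples are not typical of their class in this respect. PRR5, a pseudo-response regulator of the circadian clock, had 9.49 to 69.4 CPM in myc2-3 shoots (median 36.5), against 9.34 to 42.3 CPM in myc2-3 roots (median 23.3). In myc2-Flag it had 70.0 to 208 CPM in shoots (median 163), against 27.2 to 58.9 CPM in roots (median 40.1). The tissues overlapped in myc2-3 and not in myc2-Flag, and every myc2-3 shoot library lay below every myc2-Flag shoot library. The log2 fold change was 0.49 ± 0.08 in myc2-3 and 1.89 ± 0.07 in myc2-Flag, an interaction of −1.39 ± 0.11 (edgeR adjusted p = 7.3e-13). In myc2-3 the sign of PRR5 turned with the condition as labelled: its log2 fold change was −0.99 for NC −BFO, 2.14 for NC +BFO, −1.48 for LP −BFO and 2.29 for LP +BFO, and with library totals its average turned to −0.09.

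AT2G21130, a cyclophilin-like peptidyl-prolyl isomerase, had 2.37 to 9.66 CPM in myc2-3 shoots (median 5.71), against 1.56 to 8.50 CPM in myc2-3 roots (median 3.39). In myc2-Flag it had 16.9 to 51.1 CPM in shoots (median 22.3), against 2.78 to 6.02 CPM in roots (median 4.33). The roots of the genotypes were alike in range and the shoots did not overlap, and the interaction was −1.93 ± 0.19 (adjusted p = 3.7e-10). With any 1 library left out, the log2 fold change of AT2G21130 in myc2-3 lay between 0.60 and 0.72, so shoots remained somewhat higher. AT3G16180, which encodes the nitrate transporter NRT1.12, had 5.90 to 15.2 CPM in myc2-3 shoots, against 5.63 to 13.7 CPM in myc2-3 roots, and 15.9 to 31.9 CPM in myc2-Flag shoots, against 5.75 to 11.2 CPM in myc2-Flag roots (interaction −1.63 ± 0.15, adjusted p = 2.3e-10). Here again the myc2-Flag shoots stood alone above the other 3 groups. COR413-PM1, a cold-regulated membrane protein, had 74.1 to 125 CPM in myc2-3 shoots (median 112), against 14 to 233 CPM in myc2-3 roots (median 84.0), and 118 to 328 CPM in myc2-Flag shoots (median 188), against 28.6 to 86.3 CPM in myc2-Flag roots (median 53.2). Its root libraries in myc2-3 differed by condition, with 14 to 24.3 CPM in the LP +BFO libraries, against 190 to 233 CPM in the LP −BFO libraries, and its average tissue difference in myc2-3 of 0.56 turned to −0.03 with library totals. AT5G62350, of the invertase and pectin methylesterase inhibitor superfamily, had 149 to 276 CPM in myc2-3 shoots, against 65.4 to 154 CPM in myc2-3 roots. At 0.98 ± 0.07 its tissue difference in myc2-3 was just under the threshold of the call, and between 0.95 and 1.03 with any 1 library left out, against 2.23 ± 0.07 in myc2-Flag, so that it was smaller rather than absent.

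Of the lost root-high genes, ATL8, a RING-type ubiquitin ligase gene, passed the rule for naming, and SWEET2, a vacuolar sugar transporter, did so as a list member. ATL8 had 6.22 to 20.5 CPM in myc2-3 shoots (median 13.6), against 7.63 to 123 CPM in myc2-3 roots (median 18.7). In myc2-Flag it had 7.16 to 15.2 CPM in shoots (median 11.6), against 17.9 to 147 CPM in roots (median 59.2). Shoots were alike in both genotypes, and roots were split by condition: myc2-3 roots stood at 88.8 to 123 CPM under NC −BFO and at 22.6 CPM or less in the other 3 conditions, whereas myc2-Flag roots stood at 97.0 to 147 CPM in both +BFO conditions and at 21.4 CPM or less in both −BFO conditions. The interaction was 1.15 ± 0.15 (adjusted p = 1.9e-07), with 1 high root condition in myc2-3, against 2 in myc2-Flag. With any 1 library left out, the log2 fold change of ATL8 in myc2-3 lay between −0.97 and −0.87, so the difference was smaller rather than absent. SWEET2 had 14.5 to 46.3 CPM in myc2-3 shoots (median 25.5), against 21.7 to 38.5 CPM in myc2-3 roots (median 31.6), and 6.13 to 36.0 CPM in myc2-Flag shoots (median 10.6), against 20.3 to 51.1 CPM in myc2-Flag roots (median 34.9). The difference for SWEET2 was in the shoots, which were higher in myc2-3 by 0.95 ± 0.17 on the log2 scale, and the tissues overlapped in both genotypes.

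**Figure D4:**
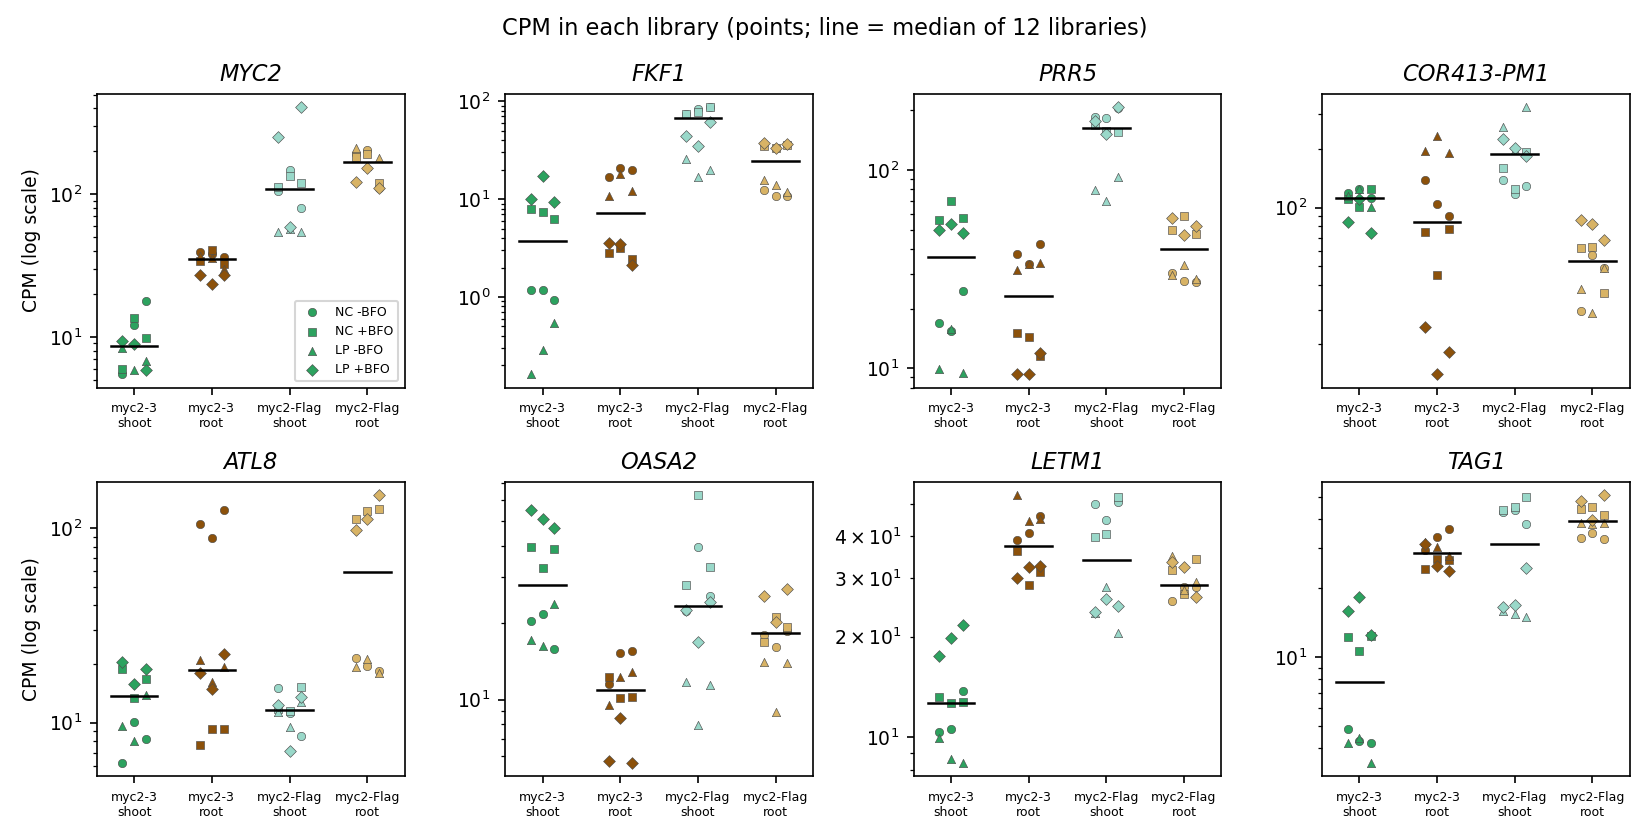
CPM in each library, on a log axis, of selected genes whose tissue difference was lost, gained or reversed, in myc2-3 shoots, myc2-3 roots, myc2-Flag shoots and myc2-Flag roots, one point per library with the condition shown by its shape and a bar at the median of 12 libraries. LETM1 and TAG1 separate shoots from roots in myc2-3 alone, and PRR5 does so in myc2-Flag alone.

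There were 40 gained root-high and 33 gained shoot-high genes, an order that turned with upper quartile factors (31 root-high and 42 shoot-high) and with library totals (22 root-high and 31 shoot-high). In the gained root-high examples that follow the myc2-3 shoots had the lowest median of the 4 groups. LETM1, a mitochondrial inner membrane protein, had 8.39 to 21.7 CPM in myc2-3 shoots (median 12.7), against 28.6 to 53.0 CPM in myc2-3 roots (median 37.5). In myc2-Flag it had 20.5 to 52.3 CPM in shoots (median 33.9), against 25.6 to 35 CPM in roots (median 28.7). The tissues were apart in myc2-3 and overlapped in myc2-Flag, with log2 fold changes of −1.56 ± 0.07 in myc2-3 and 0.17 ± 0.06 in myc2-Flag and an interaction of −1.74 ± 0.09 (edgeR adjusted p = 3.7e-17). TAG1, the diacylglycerol acyltransferase of storage oil synthesis, had 3.47 to 18.4 CPM in myc2-3 shoots (median 7.77), against 23.8 to 36.3 CPM in myc2-3 roots (median 28.4), and 15 to 49.9 CPM in myc2-Flag shoots (median 31.3), against 32.7 to 50.8 CPM in myc2-Flag roots (median 39.2). Its interaction was −1.37 ± 0.09 (adjusted p = 7.0e-14), and the shoots of myc2-3 were lower than those of myc2-Flag by −1.86 ± 0.07. AT5G39410, a saccharopine dehydrogenase-like gene, had 3.85 to 13.3 CPM in myc2-3 shoots, against 17.8 to 39.8 CPM in myc2-3 roots, while myc2-Flag shoots had 12.9 to 40.1 CPM, against 26.2 to 43.5 CPM in myc2-Flag roots (interaction −1.46 ± 0.09, adjusted p = 1.3e-14). COL9, a CONSTANS-like factor known to delay flowering, had 1.04 to 5.75 CPM in myc2-3 shoots (median 3.40), against 6.38 to 17.2 CPM in myc2-3 roots (median 13.0), and 6.44 to 35.4 CPM in myc2-Flag shoots (median 19.2), against 13.3 to 41.0 CPM in myc2-Flag roots (median 24.9). Libraries apart in myc2-3 were a condition for naming a gained gene, and 21 of 40 gained root-high and 3 of 33 gained shoot-high genes had them. For TAG1, AT5G39410, COL9 and MYC2, picked in this way, the tissues overlapped in myc2-Flag.

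Of the gained shoot-high genes, OASA2, an isoform of the cysteine synthase O-acetylserine (thiol) lyase, had 15.8 to 55.3 CPM in myc2-3 shoots (median 28.1), against 5.67 to 15.5 CPM in myc2-3 roots (median 10.9), and 7.94 to 62.8 CPM in myc2-Flag shoots (median 23.2), against 8.92 to 27.0 CPM in myc2-Flag roots (median 18.2). Shoots and roots of OASA2 were apart in myc2-3 and overlapped in myc2-Flag. Its interaction was 1.12 ± 0.16 (adjusted p = 2.6e-06), with the larger change in roots, where myc2-3 was lower by −0.76 ± 0.12. AT1G35612, annotated as a pseudogene, had 43.8 to 127 CPM in myc2-3 shoots, against 7.56 to 30.1 CPM in myc2-3 roots, and a log2 fold change of 1.99 ± 0.09 in myc2-3 and 0.94 ± 0.09 in myc2-Flag. With library totals OASA2 was no longer called between the tissues of myc2-3.

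FKF1, a blue-light photoreceptor with an F-box that links the clock to flowering, was the one reversed gene. It had 0.163 to 17.0 CPM in myc2-3 shoots (median 3.69), against 2.11 to 20.6 CPM in myc2-3 roots (median 7.15). In myc2-Flag it had 17.0 to 87.3 CPM in shoots (median 67.4), against 10.6 to 37.1 CPM in roots (median 24.5). The tissues overlapped in both genotypes, and the log2 fold change was −1.54 ± 0.17 in myc2-3 and 1.25 ± 0.09 in myc2-Flag, an interaction of −2.79 ± 0.19 (adjusted p = 2.5e-14). In myc2-3 plants without the community, FKF1 averaged 1.1 CPM in shoots, against 19.1 CPM in roots, under NC, and 0.332 CPM in shoots, against 13.6 CPM in roots, under LP. With the community it averaged 7.20 CPM in shoots, against 2.80 CPM in roots, under NC, and 12.1 CPM in shoots, against 3.06 CPM in roots, under LP. The average thus joins conditions of opposite sign as labelled. Set against myc2-Flag, FKF1 in myc2-3 had a log2 fold change of −4.39 ± 0.13 in shoots and −1.60 ± 0.10 in roots.

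Of the 14 genes of the circadian clock list, 2 were higher and 4 lower in shoots of myc2-3 (median −0.26), against 4 higher and 0 lower in shoots of myc2-Flag (median −0.01), and in myc2-3 these counts were not far from the shares of all genes tested. Of the 14 genes, 3 had a called interaction, all lower in value, against 0.730% of all genes tested. Besides PRR5 these were ELF4 and BOA, an evening complex member and a close relative of its factor LUX. ELF4 had 0 to 0.557 CPM in myc2-3 shoots (median 0.171), against 0.712 to 4.88 CPM in myc2-3 roots (median 2.28), and 1.36 to 7.27 CPM in myc2-Flag shoots (median 4.69), against 3.16 to 12.8 CPM in myc2-Flag roots (median 8.64). The shoot libraries of myc2-3 held 14 ELF4 counts in all, and the interaction was −2.54 ± 0.43 (edgeR adjusted p = 1.4e-05). BOA had 0 to 1.84 CPM in myc2-3 shoots and 0.909 to 3.25 CPM in myc2-3 roots, with an interaction of −1.46 ± 0.51 (adjusted p = 0.032) that was lost on leaving out any of 7 of the 48 libraries, with values between −2.23 and −1.31. PRR7, an earlier-phased relative of PRR5, had 350 to 538 CPM in myc2-3 shoots, against 86.7 to 221 CPM in myc2-3 roots, and its log2 fold change of 1.74 ± 0.06 in myc2-3 stood beside 1.68 ± 0.06 in myc2-Flag. All libraries were harvested at 1 time of day, so that a level cannot be told apart from a phase.

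Genes called shoot-high in both genotypes were the largest class of called interactions, with 174 of 419, and there the larger change was more often in the roots. In 137 of these 174 genes the tissue difference was the larger in myc2-3, in 126 the larger change between genotypes was in roots, and 64 were called lower and 12 higher in myc2-3 roots, against 0.744% and 0.555% of all genes tested (median −0.83 in roots and 0.20 in shoots on the log2 scale). The photosynthetic genes described above belong here. Of the 87 genes root-high in both genotypes, 80 had the larger genotype change in shoots. In both classes the genotypes thus differed more often in the organ where the gene was low. These genes were selected on a called interaction, and the low organ could hold few counts. RBCS2B, for example, had 29 counts over the myc2-3 roots and 156 over the myc2-Flag roots. The part of the selection and of few counts in this pattern was not tested.

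Across conditions as labelled, the number of genes called between shoots and roots of myc2-3 was 10302 for NC −BFO, 10142 for NC +BFO, 10271 for LP −BFO and 10356 for LP +BFO. The photosynthesis, Calvin cycle and chlorophyll lists were higher in shoots throughout each of the 4 conditions, and in the Casparian strip, nutrient, root hair and triterpene lists the number called lower differed by at most 1 from that of the average. The size of the tissue difference varied with microorganisms for 2934 genes (13.9% of those tested) and with light for 1242 (5.89%), both tested as interactions within myc2-3. These values rest on the labels as given.

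With microorganisms, the tissue difference of several defence genes varied in myc2-3. Of 20 salicylic acid and systemic defence genes, 8 had a larger and 2 a smaller shoot minus root difference under +BFO than under −BFO, against 8.65% larger and 5.26% smaller among all genes tested. BGL2, a glucanase also known as PR2, had an interaction of 5.20, PAD3 of camalexin synthesis one of 5.09, and the NPR1-interacting gene NIMIN1 one of −6.34. The jasmonate and ethylene factor ORA59 changed by 4.81, with log2 fold changes of shoots over roots of −1.60 in NC −BFO plants, 5.45 in NC +BFO plants, 2.1 in LP −BFO plants and 4.68 in LP +BFO plants. Aliphatic glucosinolate genes went the other way, with 5 of 12 smaller and none larger under +BFO, among them BCAT4 at −2.00 and the regulator MYB28 at −1.41. The phosphate transporter PHT1;1 stood at 4.81 and the phloem sucrose exporter SWEET12 at 5.43. In the Calvin cycle and photorespiration list 7 of 15 were smaller and 1 larger under +BFO.

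With light, the differences were fewer. Of the Calvin cycle and photorespiration genes 9 of 15 had a smaller shoot minus root difference under LP than under NC and none a larger one, against 2.22% smaller and 3.66% larger among all genes tested, and of the light harvesting genes 4 of 18 were smaller. The clock list had 5 of 14 smaller, with CCA1, a morning factor, at −2.32 (edgeR adjusted p = 5.2e-09). LOX2 was smaller by −2.52 and AOC2 by −2.63, while SWEET12 was larger by 4.61. The summed root markers were higher in the myc2-3 LP −BFO roots, at 6434 to 7134 CPM, against 2045 to 4634 CPM in the other myc2-3 root libraries. This sum thus moved with 1 of the conditions compared, and its part was not tested. Since PYK10 made up most of the sum, with 1561 to 6268 CPM over the myc2-3 roots, the root markers as a set are not shown to have moved. The summed shoot markers include members of both photosynthesis lists, such as RBCS1A and LHCB3. They were 26445 to 31302 CPM in myc2-3 LP +BFO shoots, against 39909 to 49291 CPM in the other myc2-3 shoots. In myc2-3 roots they were 39.4 to 267 CPM under LP and 65.0 to 116 CPM under NC. Their part in the light and microbe interactions was not tested.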

How the data were processed

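RNA was sequenced from 48 libraries of shoots and roots. The authors checked reads with FastQC, aligned them to TAIR10 with TopHat2 and counted them on exons with HTSeq in reverse-stranded mode, per the study's methods. The deposited values are raw counts per gene, 1 table per genotype, for 32678 gene identifiers. The 5 summary lines were left out; reads on no gene were 1.23 to 4.08% and reads with several alignments, which were not counted on genes, 1.46 to 5.90% of a library's total. No per-sample column went unused. Columns were matched to samples by project and sample letter.

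Genes with over 100 counts in total were tested (21098, of which 20964 have an entry in the RefSeq annotation of TAIR10.1, used for names and products only). edgeR 4.0.16 in R 4.3.3 was used, with TMM factors and glmQLFit and glmQLFTest on a factor of the 16 groups of tissue, genotype and condition; tissue contrasts average the 4 conditions. A call needs a log2 fold change of at least 1 in size and a Benjamini-Hochberg adjusted p under 0.05. SE is the log2 fold change divided by the root of F, an approximation. CPM are TMM-scaled. A bound takes 3 counts over the group as floor, and intervals and bounds cover counting error only. The fit was tested on simulated data, with changes set only in genes expressed in both organs. That test therefore did not cover changes in genes near 0 counts in an organ. Methods call the 3 replicates biological, but p-values measure the spread between these samples. limma 3.58.1 (limma-voom) and DESeq2 1.42.0 were alternatives, as were other scalings, filters, leaving out each library, thinning and the replicate number as a block.

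The libraries compared and the 21 gene lists (268 of 279 genes tested) were chosen with earlier results of these data known. Genes were named by rule: MYC2, the 4 genes with the largest and the 4 with the smallest log2 fold change in myc2-3 whose libraries did not overlap (mean count at least 50), up to 5 genes per class of lost, gained and reversed (mean CPM at least 10 in a group, libraries apart in the genotype with the difference), the extremes of each list and list members with a called interaction. Other genes named were chosen after their values were seen. No promoter motifs were searched and no sequences are shown.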

Additional observations from a re-analysis of the deposited data

Results flagged for a closer look

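The tissue difference differed between myc2-3 and myc2-Flag, by a test of the difference itself, for 419 genes, and within myc2-3 it differed between +BFO and −BFO for 2934 genes and between LP and NC for 1242. Differences given here are shoot minus root log2 fold changes in myc2-3 minus those in myc2-Flag, tested with the edgeR quasi-likelihood F-test (Benjamini-Hochberg), and genotype cannot be told apart from sequencing project.

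Among genes picked from the lost, gained and reversed classes, the difference was −2.79 for FKF1, −1.93 for AT2G21130, −1.74 for LETM1, −1.63 for AT3G16180, −1.46 for AT5G39410, −1.44 for MYC2, −1.39 for PRR5, −1.37 for TAG1, −1.36 for COL9, −1.25 for AT5G62350 and −1.24 for COR413-PM1. It was 1.06 for AT1G35612, 1.12 for OASA2 and 1.15 for ATL8.

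Among list members it was −2.54 for ELF4 and −1.46 for BOA of the clock, −1.61 for VSP2, −1.31 for VSP1 and −1.15 for CHIB of the jasmonate outputs, −1.30 for the ER body glucosidase BGLU18, −1.76 for the flavonol synthase FLS1, −1.06 for the beta-amylase BAM3, −1.05 for CER1 and −1.15 for GLDP1. On the other side it was 1.96 for AZI1, 1.16 for SWEET2 and 1.1 for LHCB1.3. CA2, named for its tissue difference in myc2-3 and no list member, had 1.92.

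For the Rubisco small subunits it was 1.06 for RBCS1A, 1.49 for RBCS1B, 2.25 for RBCS2B and 1.34 for RBCS3B, and for other Calvin cycle and photorespiration enzymes 1.03 for GAPA, 1.05 for HCEF1, 1.07 for GOX1 and 1.13 for HPR. The least secure call was FLS1, lost on leaving out any of 31 of the 48 libraries, followed by BAM3 with 10, BOA and GAPA with 7 each, and CER1 with 6.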

How the results depend on the processing

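Of 115 alternative values of the counts of calls, 101 lay within 1.5 times the value reported. With glmTreat, which tests against a 2-fold change, 16 interactions with genotype were called and 5 lost and 6 gained genes, with 1295 interactions with microorganisms and 78 with light. Without a fold threshold on the interaction 266 genes were lost and 573 gained, and with a log2 fold change under 0.5 asked of the other genotype 32 and 45. Reversed genes numbered 0 with library totals, 2 each with upper quartile factors, limma-voom and DESeq2, and 1 to 2 with single libraries left out. Leaving out single libraries gave 10074 to 10189 tissue calls in myc2-3, 9621 to 9701 in myc2-Flag, 386 to 480 interactions, 53 to 76 lost and 67 to 84 gained genes. With the replicate block 10135, 9670 and 409 genes were called for myc2-3, myc2-Flag and the interaction. Same-numbered shoot and root samples did not deviate together (24 pairs, r between −0.08 and 0.05). Organs of the same plants need not deviate alike, so this cannot show whether the numbers pair them. Of 133 lost or gained genes 97 kept their class with libraries thinned to the smallest total, 110 with upper quartile factors and 64 with library totals. With library totals the tissue difference in myc2-3 turned to −0.089 for PRR5, −0.026 for COR413-PM1, −0.49 for UBC21 and −0.047 for the floral gene PI, and the median to −0.39 for aliphatic glucosinolates and −0.45 for salicylic acid genes; with upper quartile factors UBC21 turned to −0.064 and the salicylic acid median to −0.028. Of 565 other values for named genes and lists, 529 stayed on the same side. A trended-dispersion fit was added after seeing the data, and 131 of the 133 genes kept their class in it. The causes were not tested. The search for promoter motifs was not run. Depth limits genes near 0 counts in an organ, whose ratios span wide counting intervals.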

Other observations

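The genes described here were chosen after their values were seen, and their counts are descriptions. Type-A response regulators, which are induced by cytokinin and dampen its signalling, had 5 of 9 tested members with a called interaction, all higher in value in myc2-3 than in myc2-Flag, against 1.26% of all genes tested (median 1.05, against 0.02 over all genes tested). ARR7 had 6.27 to 73.6 CPM in myc2-3 shoots (median 16.7), against 2.44 to 7.70 CPM in myc2-3 roots (median 3.61), and 3.44 to 20.9 CPM in myc2-Flag shoots (median 8.32), against 2.87 to 16.4 CPM in myc2-Flag roots (median 6.32). Its log2 fold change of shoots over roots was 2.33 in myc2-3 and 0.46 in myc2-Flag. ARR5 had −0.50 in myc2-3 and −1.90 in myc2-Flag, and ARR6 0.47 in myc2-3 and −1.18 in myc2-Flag. In shoots 5 of the 9 were called higher in myc2-3 and in roots none, against 0.981% and 0.555% of all genes tested.

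Cold-regulated genes went the other way. Of 14 tested, 7 had a called interaction, all lower in value in myc2-3, against 0.730% of all genes tested (median of the 14 −1.64), and 6 were called lower in myc2-3 shoots, against 0.877% of all genes tested. KIN2 had 1.91 to 9.66 CPM in myc2-3 shoots, against 0.128 to 1.57 CPM in myc2-3 roots, and 9.10 to 84.7 CPM in myc2-Flag shoots, against 0.0877 to 2.22 CPM in myc2-Flag roots. COR27, which is under clock as well as cold control, had 0.156 to 4.37 CPM in myc2-3 shoots, against 0.182 to 2.64 CPM in myc2-3 roots, and 2.93 to 93.3 CPM in myc2-Flag shoots, against 0.278 to 8.21 CPM in myc2-Flag roots. Its log2 fold change in myc2-3 was −0.99 for NC −BFO, 2.35 for NC +BFO, −1.32 for LP −BFO and 3.06 for LP +BFO. LTI78, COR413-PM1 and KIN1 likewise joined myc2-3 conditions of opposite sign, whereas KIN2, RAB18 and LTI30 kept 1 sign. KIN1 averaged at most 0.465 CPM in any group. The upstream factors CBF1, CBF2 and CBF3 had no called interaction. Their values of 0.67 ± 0.90, 1.60 ± 0.64 and −2.27 ± 1.09 were too imprecise to show that the genotypes were alike. ACA8, a calcium pump of the plasma membrane, had 7.59 to 18.7 CPM in myc2-3 shoots, against 134 to 262 CPM in myc2-3 roots, and 57.0 to 124 CPM in myc2-Flag shoots, against 138 to 235 CPM in myc2-Flag roots, with an interaction of −2.65 ± 0.12 (edgeR adjusted p = 2.8e-19). The clock-related PRR3 and BBX8 were lost shoot-high, with log2 fold changes of 0.05 and −0.11 in myc2-3, against 1.52 and 1.22 in myc2-Flag. These averages join conditions of opposite sign as labelled. In myc2-3, PRR3 stood at −1.48 for NC −BFO, 1.21 for NC +BFO, −1.46 for LP −BFO and 1.95 for LP +BFO, and BBX8 at −1.13, 0.76, −0.69 and 0.61 for the same conditions.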
